A study of Mus musculus with 2 samples.

Results

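Angiopoietins and platelet-derived growth factors (PDGFs) are 2 secreted ligand families that act between the cells of a vessel wall, and their ligands and receptors were described here in the newborn mouse heart. The set held 10 genes, chosen by symbol and matched by Ensembl identifier: Angpt1, Angpt2, Tek, Tie1, Pdgfa, Pdgfb, Pdgfc, Pdgfd, Pdgfra and Pdgfrb. All 10 were found among the 43346 Ensembl genes measured, and they carried 27 annotated transcripts. RNA-seq of total RNA had been done on single hearts of 2 littermate pups of the inbred strain B6NCrl on postnatal day 0, with no transgene, deletion or treatment named in the labels. Replicate 1 is the heart of pup 2 and replicate 2 that of pup 3, both of pregnancy 1. The labels give both libraries 1 donor identifier but name different pups, and on that ground they were taken as 2 animals. There was 1 group, neonatal heart (n = 2), so genes were compared within a heart and between the littermates.

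In the vessel wall, Angpt1 from mural and stromal cells activates the endothelial receptor tyrosine kinase encoded by Tek, which stabilises vessels. Angpt2, made by endothelium, acts on the same receptor as a context-dependent antagonist, and Tie1 encodes a partner receptor that modulates it. PDGF-B from endothelium recruits pericytes and smooth muscle cells through the receptor encoded by Pdgfrb, whereas PDGF-A and PDGF-C act mainly through the receptor encoded by Pdgfra, which marks fibroblasts and other mesenchymal cells.

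Depth was 46151722 expected counts in replicate 1 and 44707283 in replicate 2, a count being reads shared out among the features they match. Over 16610 genes the libraries differed by more than counting noise (chi-square of 14.8 per degree of freedom), and the biological coefficient of variation was 0.0892 over 15980 genes. Levels are given in TPM, a transcript abundance scaled by length and depth, and bounds in brackets are the authors' credibility bounds, at a confidence level that the tables leave unstated. Such bounds, and the counting intervals below, cover counting and read assignment only, not the spread between animals. No p-value is given, since with 2 pups the smallest two-sided p of an exact sign-flip test is 0.5. Markers of cardiomyocytes, which define the labelled tissue, were at 1 TPM or more in both hearts in 8 of 8 cases, led by Actc1 (16412 and 13902 TPM), Myl2 (11818 and 11724 TPM) and Tnnt2 (10667 and 9972 TPM).

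Alternative exons distinguish the encoded proteins or transcripts of Pdgfa, Tek, Pdgfc and Pdgfd, and their sequences are shown because the transcript results below turn on them. Each is read 5′ to 3′ on the coding strand from the GENCODE M21 transcripts (build mm10). Capitals mark the alternative part, and the 10 lower-case bases on each side belong to the neighbouring exonic sequence. The Pdgfa retention exon lies at chr5:138978622-138978690 on the minus strand and has 69 bases, of which 53 are coding before a stop codon that begins at its base 54. The Tek cassette exon lies at chr4:94799127-94799279 on the plus strand, and its 153 bases are coding and keep the reading frame. The extra Pdgfc exon at chr3:81131018-81131076, on the plus strand, has 59 bases and holds an in-frame stop codon that begins at its base 54. The Pdgfd extension at chr9:6288472-6288489, on the plus strand, adds 18 coding bases to an exon.
Pdgfa retention exon: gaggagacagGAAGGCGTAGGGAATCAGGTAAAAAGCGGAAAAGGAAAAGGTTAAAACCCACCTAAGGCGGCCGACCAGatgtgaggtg
Tek cassette exon: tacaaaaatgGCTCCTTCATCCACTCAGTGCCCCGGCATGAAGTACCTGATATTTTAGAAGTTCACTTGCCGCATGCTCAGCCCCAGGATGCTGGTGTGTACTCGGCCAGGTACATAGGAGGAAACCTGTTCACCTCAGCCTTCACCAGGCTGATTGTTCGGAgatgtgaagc
Pdgfc extra exon: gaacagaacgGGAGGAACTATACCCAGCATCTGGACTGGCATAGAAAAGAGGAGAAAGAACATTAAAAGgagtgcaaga
Pdgfd extension: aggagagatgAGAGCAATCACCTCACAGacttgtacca

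All 10 genes were at 1 TPM or more in both hearts, the limit used for detection, which 29.6% of Ensembl genes passed. Their mean levels ran from 36.5 TPM for Pdgfa to 1.315 TPM for Pdgfc, with a median of 7.87 TPM against 11.1 TPM over all 12812 detected genes. Pdgfa ranked 2905 among the detected genes and Pdgfc 12458. By role, the TIE receptors summed to 57.6 and 53.4 TPM, the PDGF ligands to 46.6 and 44.3 TPM, the angiopoietins to 21.8 and 23.1 TPM and the PDGF receptors to 15.2 and 13.5 TPM in replicates 1 and 2. In whole-heart RNA, fewer cells of a type and less RNA per cell cannot be told apart, so these are levels of the organ.

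**Figure D1:**
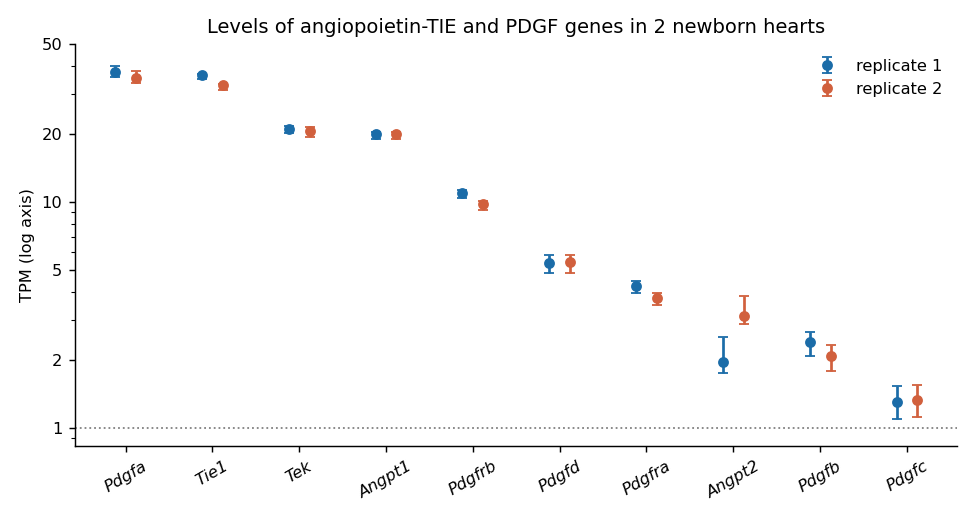
TPM (log axis) of the 10 genes in replicate 1 and replicate 2, in order of their mean, with the authors' credibility bounds as bars and a dotted line at 1 TPM. Pdgfa and Tie1 lie highest at 32.8 to 37.6 TPM, and the bars of the hearts are apart for Angpt2, higher in replicate 2, and for Tie1 and Pdgfrb, higher in replicate 1.

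Among the angiopoietins, Angpt1 predominated. Angpt1 (chr15:42424723-42676977, minus strand), the agonist of the receptor, was at 19.88 TPM (18.9 to 20.3) in replicate 1 and 19.95 TPM (19.0 to 20.4) in replicate 2, a mean of 19.9 ± 0.049 TPM (SD, n = 2). Angpt2 (chr8:18690263-18741562, minus strand), the context-dependent antagonist, was at 1.95 TPM (1.75 to 2.54) and 3.13 TPM (2.87 to 3.85), a mean of 2.54 ± 0.83 TPM (SD, n = 2). The levels of Angpt1 and Angpt2 did not overlap in either heart. Angpt1 was 10.2-fold above Angpt2 in replicate 1 and 6.37-fold in replicate 2, a log2 ratio of 2.58 ± 0.34 (SD, n = 2) on the TPM + 1 scale used for all ratios between genes, which understates those of low genes. It held 91.1% and 86.4% of the TPM summed over both angiopoietins. Angpt4, a further angiopoietin, was at 0.09 and 0.07 TPM, under the detection limit in both hearts.

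Among the TIE receptors, both were well above the detection limit and Tie1 was the higher. Tie1 (chr4:118471191-118490061, minus strand), the partner receptor, was at 36.5 TPM (35.0 to 37.0) in replicate 1 and 32.8 TPM (31.4 to 33.3) in replicate 2. Tek (chr4:94739289-94874976, plus strand), the angiopoietin receptor, was at 21.1 TPM (20.2 to 21.7) and 20.5 TPM (19.4 to 21.4). Bounds of the receptors were apart in both hearts, and Tie1 exceeded Tek by 1.73-fold and 1.60-fold, a log2 ratio of 0.71 ± 0.079 (SD, n = 2). Tek and its ligand Angpt1 could not be ranked: their ratio was 1.06 and 1.03 and their bounds overlapped.

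Among the PDGF ligands, Pdgfa held 80.6% of the summed TPM in replicate 1 and 80.1% in replicate 2. Pdgfa (chr5:138976014-138997370, minus strand), the A chain, was at 37.6 TPM (35.7 to 39.9) and 35.5 TPM (33.5 to 38.1). Pdgfb (chr15:79995874-80014977, minus strand), the B chain, was at 2.40 TPM (2.09 to 2.67) and 2.07 TPM (1.78 to 2.32). The A chain was thus 15.7-fold and 17.2-fold above the B chain, a log2 ratio of 3.54 ± 0.048 (SD, n = 2). Pdgfd (chr9:6168584-6378850, plus strand), a ligand of the beta receptor that is released by proteolysis, was at 5.36 TPM (4.83 to 5.82) and 5.40 TPM (4.86 to 5.81). Pdgfc (chr3:81036416-81214040, plus strand), likewise activated by proteolysis, was at 1.30 TPM (1.09 to 1.53) and 1.33 TPM (1.12 to 1.56). Pdgfc was at 0.243 and 0.246 times the level of Pdgfd, a log2 ratio of -1.46 ± 0.0068 (SD, n = 2), and was the lowest of the 10 genes in both hearts. On protein-coding transcripts alone the log2 ratio was -2.14.

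Among the PDGF receptors, the beta receptor was the higher. Pdgfrb (chr18:61045150-61085061, plus strand), the receptor of mural cells, was at 10.95 TPM (10.4 to 11.3) in replicate 1 and 9.76 TPM (9.21 to 10.1) in replicate 2. Pdgfra (chr5:75152292-75198215, plus strand), the receptor of mesenchymal cells and fibroblasts, was at 4.26 TPM (3.95 to 4.46) and 3.77 TPM (3.48 to 3.97). Pdgfrb exceeded Pdgfra by 2.57-fold and 2.59-fold, a log2 ratio of 1.18 ± 0.0073 (SD, n = 2), and the bounds were apart in both hearts.

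The receptor-to-ligand order was opposite on the A and B sides of the PDGF family. Pdgfrb was 4.56-fold and 4.71-fold above Pdgfb, a log2 ratio of 1.81 ± 0.0029 (SD, n = 2). Pdgfra was at 0.113 and 0.106 times the level of Pdgfa, a log2 ratio of -2.91 ± 0.043 (SD, n = 2). Of 8 pairs compared, 5 of 5 paralog pairs and 2 of 3 receptor-ligand pairs had the same sign and separate bounds in both hearts, Tek with Angpt1 being the exception. No share over other gene pairs was computed, so whether these counts are unusual was not tested. Messenger levels in whole tissue say nothing of which cell holds each transcript.

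**Figure D2:**
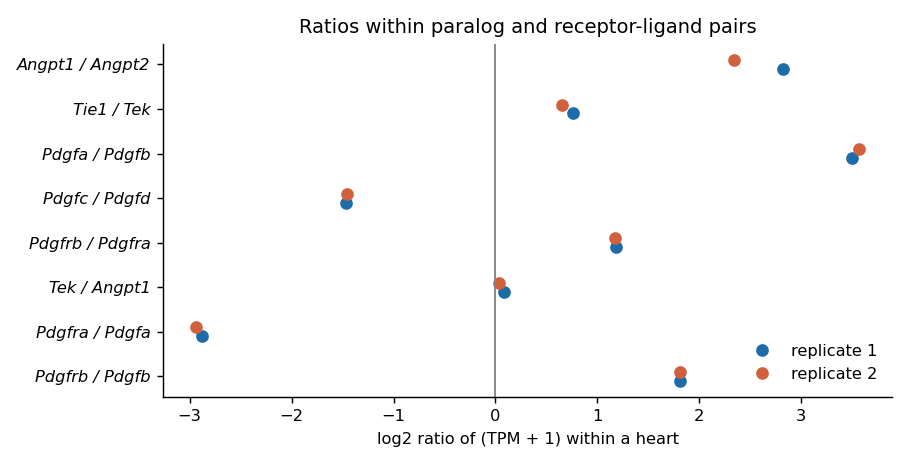
Log2 ratio of TPM + 1 within each heart for 5 paralog pairs and 3 receptor-ligand pairs, each point 1 heart. Angpt1 over Angpt2 shows the widest gap between the hearts, 2.82 in replicate 1 and 2.34 in replicate 2, and Tek over Angpt1 lies near 0 in both.

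In the order of the 10 levels, 5 of 9 neighbouring genes were apart by the same criterion, again without a share over other gene pairs. Pdgfa and Tie1 were not separable (ratio 1.03 and 1.08), nor were Tek and Angpt1. Pdgfra was above Angpt2 by 2.18-fold in replicate 1 and 1.2-fold in replicate 2, with overlapping bounds in replicate 2. Angpt2 and Pdgfb changed places, Angpt2 being at 0.812 times Pdgfb in replicate 1 and 1.51 times in replicate 2. The order of Angpt2 and Pdgfb thus depended on which heart was read. Pdgfrb, Pdgfd and Pdgfra followed each other in both, and Pdgfc was the lowest in both.

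Between the littermates, none of the 10 genes differed by 2-fold or more in TMM-scaled counts, a limit passed upward in replicate 2 by 0.334% and downward by 0.163% of 13465 genes (mean count at least 50). At a limit of 1.2-fold, Angpt2 was higher in replicate 2 and no gene of the set was lower, where 7.95% of all genes were higher and 7.27% lower, so 1 gene of 10 is a share near the background. Angpt2 had 257 and 409 expected counts, a log2 ratio of 0.70 (95% counting interval 0.47 to 0.93), or 1.62-fold. Of 2037 genes whose mean count was within 1.5-fold of that of Angpt2, 1.72% lay as far from 0 or farther. Angpt2 had the largest ratio of the 10 genes, so this share is not that of a gene fixed beforehand. The credibility bounds of TPM were apart between the hearts for 3 of the 10 genes: Angpt2 was higher in replicate 2, where 7.07% of the 13465 genes were, and Tie1 and Pdgfrb were lower in replicate 2, where 10.6% were. The 9 genes besides Angpt2 had log2 ratios, replicate 2 minus replicate 1, from -0.20 for Pdgfb to 0.06 for Pdgfd. The median of the 10 was -0.08, against -0.00099 for all genes.

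**Figure D3:**
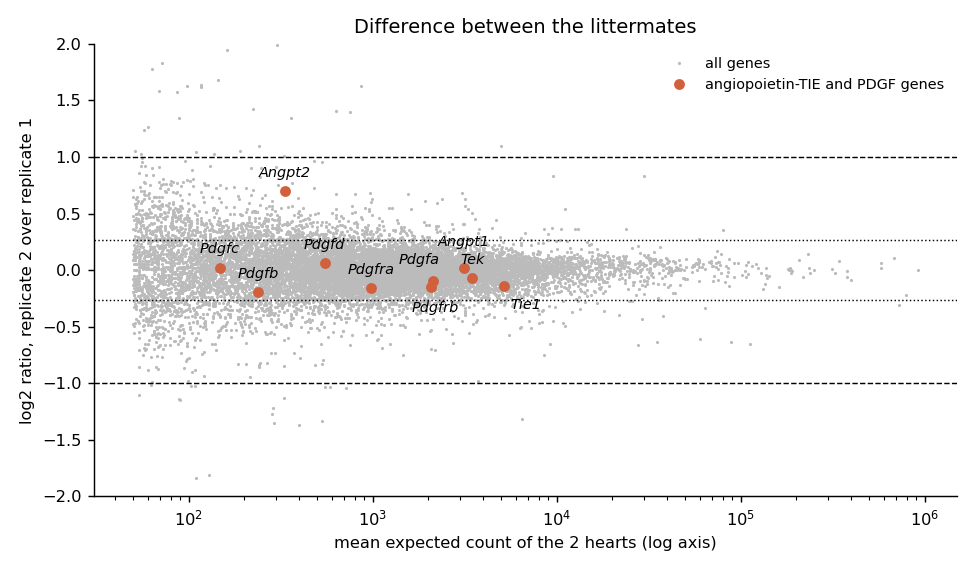
Log2 ratio of TMM-scaled counts, replicate 2 over replicate 1, against the mean expected count (log axis) of 13465 genes in grey and the 10 genes in colour, with dotted lines at 1.2-fold and dashed lines at 2-fold; 23 genes lie beyond the axis. Angpt2 stands at 0.70 and the other 9 genes lie within the dotted lines.

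Marker levels moved with the littermates too. Airway secretory genes were far higher in replicate 2: Scgb3a2 was at 2.96 and 563 TPM and Scgb1a1 at 0.97 and 74.3 TPM, while the alveolar gene Sftpc was at 25.5 and 0.34 TPM. Of 11 lung epithelial markers, 1 was at 1 TPM or more in both hearts, and the list summed to 33.1 and 645 TPM. Among the 5 whose mean count reached 50, 3 were at least 2-fold higher in replicate 2 and 2 at least 2-fold lower. Over all genes these shares were 0.334% and 0.163%. Nkx2-1, which defines that epithelium, was at 0.04 TPM in both hearts. Erythroid markers summed to 13812 and 8837 TPM, led by Hba-a2, Hbb-bs and Hba-a1, and 1 of the 9 was not matched. All 7 whose mean count reached 50 were lower in replicate 2 by 1.2-fold or more, where 7.27% of all genes were. Slc4a1 (2.38 and 0.97 TPM) was lower by more than 2-fold. Endothelial markers, 15 of 15 detected and led by Egfl7, Eng and Esam, summed to 574 and 567 TPM. By 1.2-fold, 1 was higher in replicate 2 (Cldn5) and 1 lower (Erg), beside 7.95% and 7.27% of all genes. The part of these markers in the Angpt2 difference was not tested.

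Markers of the cells that these ligands connect were all present. All 17 mural markers were detected, summing to 1830 and 1552 TPM and led by Acta2 (1130 and 884 TPM, lower by 1.2-fold in replicate 2), Des and Mcam. Acta2 and Des are also expressed by cardiomyocytes of the newborn heart, and the pericyte genes Rgs5 (17.1 and 15.7 TPM) and Kcnj8 (18.2 and 16.7 TPM) lay far below them. All 14 fibroblast markers were detected, with sums of 1915 and 2034 TPM, led by Col3a1, Postn and Col1a1, and none differed by 1.2-fold. Epicardial markers (8 of 8 detected, led by Msln, Upk3b and Aldh1a2) summed to 126 and 134 TPM, and lymphatic endothelial markers (6 of 7, led by Ccl21a, Prox1 and Lyve1) to 54.2 and 60.6 TPM; Krt19 and Ccl21a were each higher by 1.2-fold in replicate 2. Platelets store PDGFs, and of 10 platelet and megakaryocyte markers 3 were detected, Pf4, Itga2b and Gp1bb, with a sum over the list of 57.0 and 62.0 TPM; Gp6 was at 0 and 0.05 TPM. Macrophage markers (7 of 9, led by C1qb, C1qa and C1qc) summed to 78.1 and 86.2 TPM, with Cd68 and Mrc1 higher and Fcgr1 lower by 1.2-fold in replicate 2. No thymus or lymphocyte marker of 9 was detected (sums 0.64 and 0.79 TPM), and 2 of 8 cardiomyocyte markers, Myh6 and Myh7, were lower by 1.2-fold in replicate 2. Beside the 1.2-fold calls in these marker lists, 7.95% of all genes were higher and 7.27% lower.

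Transcript shares were given by the authors' transcript tables for the same libraries. Each of the 8 genes with more than 1 annotated transcript had the same main transcript in both hearts, where 94.6% of 6445 such genes at 5 TPM or more did. Of the 8 genes, 5 reach 5 TPM, and all 5 kept their main transcript. The bounds of the most and next most abundant transcripts were apart in both hearts for 7 of 8 genes, Pdgfc being the exception. For this measure the share over all genes was not computed. Angpt1 and Pdgfb have 1 transcript each, and a single transcript held 100% of the TPM of Angpt2, and of Pdgfrb, in both hearts. The main transcript of Tie1 held 94.7% and 94.5% of its TPM.

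Pdgfa was split among transcripts that share their coding sequence. Pdgfa-202 held 50.3% and 49.8% of the TPM of the gene. Pdgfa-204, whose annotated start lies 1050 bases upstream, held 34.9% and 34.1%, and Pdgfa-203, with a start 2333 bases upstream, held 10.5% and 5.81%. All 3 have the same 588 coding bases, so the difference lies in the untranslated parts. Pdgfa-201, which contains the retention exon printed above, encodes the long form of the A chain; its basic tail is known to hold the protein on heparan sulphate. Pdgfa-201 was listed at 0 expected counts in replicate 1, with a bound of up to 0.488 TPM, and at 46.0 expected counts in replicate 2, with bounds of 0.307 to 1.68 TPM. These bounds overlap, and whether the hearts differed in this transcript was not tested. The short form made up 100% and 97.4% of the TPM of the 4 protein-coding transcripts.

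Tek was led by the transcript with the cassette exon printed above. Tek-203, with that exon, held 71.1% and 72.7% of the TPM of the gene. Tek-202, which lacks its 153 bases and has 3216 rather than 3369 coding bases, held 18.9% and 11.98%, and its bounds, 2.15 to 5.59 TPM and 0.642 to 4.15 TPM, overlapped between the hearts. Tek-201, with 3366 coding bases, held 10.0% and 11.8%. Most of the Tek level thus lay in transcripts with the exon, in both hearts.

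Pdgfc had its largest share in a transcript that is annotated as a target of nonsense-mediated decay. Pdgfc-202, which contains the 59-base exon with the stop codon, held 60.3% and 70.1% of the TPM of the gene. The coding transcript, Pdgfc-201, held 37.2% and 29.9%, which is 0.49 TPM (0.256 to 0.758) and 0.40 TPM (0.217 to 0.645). The bounds of these 2 transcripts overlapped in both hearts, so their order is not settled by 148 and 147 expected counts for the gene. Counted on protein-coding transcripts alone, 9 of the 10 genes were at 1 TPM or more, and Pdgfc fell below that limit. For protein-coding transcripts the share over all genes was not computed.

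Pdgfd and Pdgfra each had a minor transcript. Pdgfd-201 held 75.85% and 81.35%, and Pdgfd-202, with the 18-base extension printed above, held 24.15% and 18.65%. Pdgfra-201 held 84.6% and 92.1%, and Pdgfra-202, whose annotated start lies 3593 bases downstream and which has the same 3267 coding bases, held 15.4% and 7.93%. Starts and coding bases are those of GENCODE M21, where 3 of these transcripts differ in length from the ones quantified. Pdgfra-201 has 6549 bases there rather than 6553, Pdgfra-202 6834 rather than 6570 and Pdgfd-201 3131 rather than 3052. For Pdgfra-202 the posterior SD of the count was 48.5% and 50.5% of its posterior mean, so its share is loosely determined.

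**Figure D4:**
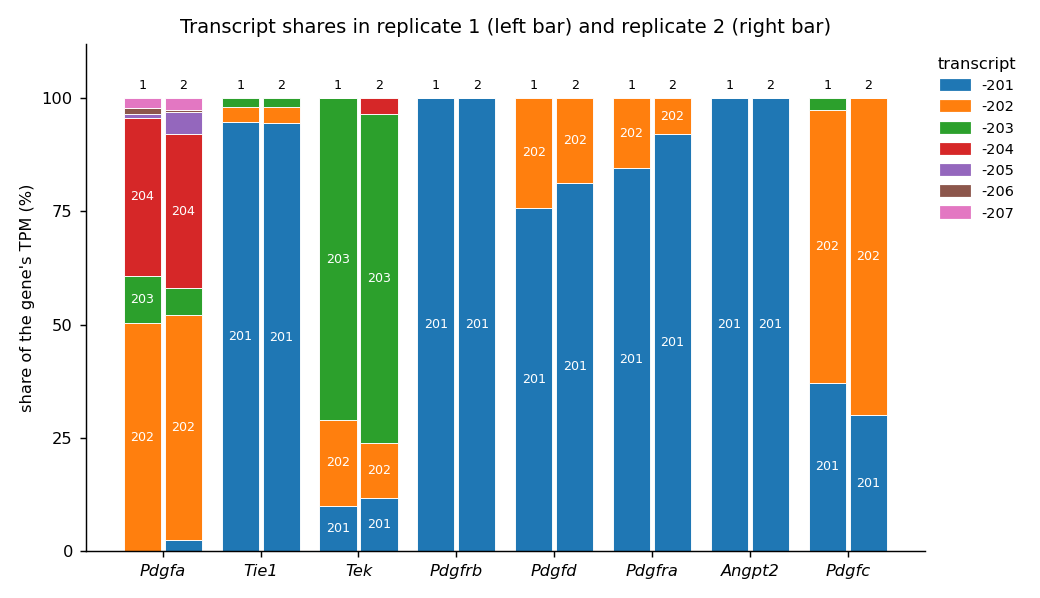
Share of the TPM of each gene (%) held by its annotated transcripts, for the 8 genes with more than 1 transcript, with replicate 1 as the left bar and replicate 2 as the right bar and colours by transcript number. Pdgfa and Tek are divided among several transcripts in both hearts, and Pdgfc is led by Pdgfc-202 at 60.3% and 70.1%.

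Several genes share exonic sequence with another annotated gene, and the sources used here do not state whether counting used strand, so reads of the partners cannot be told apart. Of the 10 genes, 6 have no such overlap. Pdgfa overlaps 6330403L08Rik on the opposite strand, which was assigned 423 and 273 expected counts beside 2225 and 2039 for Pdgfa. Angpt1 overlaps Gm17473 (61.5 and 57.25 expected counts beside 3154 and 3131), and Pdgfc overlaps Gm16000, which was listed at 0. Pdgfra overlaps Mir7025 on the same strand, listed at 0, and Gm42802 and Gm42803 on the opposite strand. Those 2 were not among the genes measured, so no reads could be assigned to them. Angpt2 shares no exonic sequence but lies within the span of Mcph1. Pdgfd with Ddi1, and Pdgfb with Gm41361 and Mir7213, likewise overlap in span without shared exonic sequence.

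Beyond the ligands and receptors, the pathway was followed through 3 lists of known partners, 62 different genes of which 54 were detected. Of 24 genes of the angiopoietin-TIE pathway, 20 were detected, summing to 821 and 791 TPM. The most abundant were Itgb1 (241 and 219 TPM), an integrin chain, Grb14 (126 and 127 TPM) and Grb2 (71.7 and 85.8 TPM), adaptor proteins, and the kinase gene Akt2 (61.2 and 55.95 TPM). Ptprb, the phosphatase that dephosphorylates the TEK receptor, was at 4.15 and 3.64 TPM. Differences between the hearts are of counts, read in the 22 of 24 genes whose mean count reached 50, and none reached 2-fold. At 1.2-fold, 4 of the 22 were lower in replicate 2, where 7.27% of all genes were, and none was higher, where 7.95% were. The 4 were Tnip2 (9.17 and 7.09 TPM), Dok2 (1.69 and 1.27 TPM), Pik3cb and Svep1 (0.65 and 0.39 TPM). Expected counts were 547 and 430 for Tnip2, 82 and 62 for Dok2 and 223 and 158 for Svep1. No share over genes of similar count is given for the 4, and low counts spread more widely. For Pik3cb the scales differed, with 155 and 123 expected counts (a fold of 0.813) but 1.24 and 0.54 TPM, a wider gap. The median log2 ratio of the list was -0.09.

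Of 17 genes of PDGF processing and retention, 14 were detected. Sparc, a matrix protein that binds PDGF-B, was at 1358.5 and 1364.5 TPM and made up most of the sums of 1500 and 1497 TPM. Nrp1, a co-receptor, was at 44.0 and 45.9 TPM, Plat, the protease that cleaves PDGF-C, at 31.1 and 26.1 TPM, and Furin, a convertase that processes the A and B chains, at 14.4 and 12.8 TPM. Plau and St14, proteases that activate PDGF-D, were at 0.68 and 0.64 TPM and at 0.17 and 0.46 TPM, under the detection limit. Ndst1, which sulphates heparan sulphate, was at 8.01 and 6.26 TPM and was the 1 gene lower in replicate 2 by 1.2-fold among the 15 whose mean count reached 50. None of the 15 was higher by 1.2-fold or differed by 2-fold, and their median log2 ratio was -0.11. Over all genes 7.27% were lower and 7.95% higher by 1.2-fold, so 1 of 15 lower is a share near the background. St14, with 21 and 55 expected counts, lay under that count limit and was not among them.

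Of 30 genes of PDGF receptor signalling, 28 were detected, with sums of 543 and 533 TPM. Grb2, Slc9a3r2 (49.3 and 44.9 TPM), a scaffold protein, the adaptor gene Nck1 (44.4 and 48.0 TPM) and Stat3 (49.95 and 40.4 TPM), a transcription factor, were the most abundant. Of all 30, Cblb was higher in replicate 2 by 1.2-fold in counts (1.70 and 2.08 TPM) and Stat3 and Pik3cb were lower, beside 7.95% and 7.27% of all genes, and none differed by 2-fold in counts. The median log2 ratio was -0.07. Angiopoietin-TIE and PDGF receptor signalling share adaptor and kinase genes, so these counts are not independent.

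**Figure D5:**
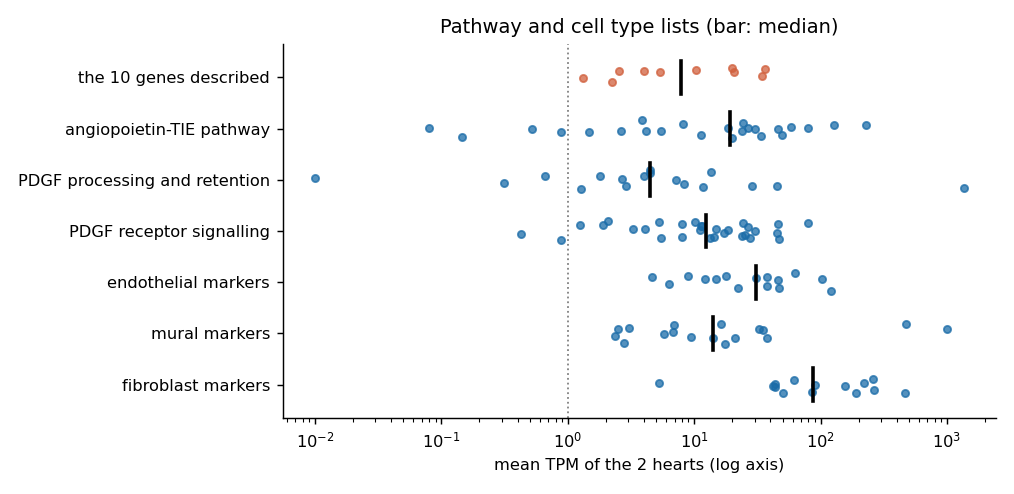
Mean TPM of the 2 hearts (log axis) for each of the 10 genes, for 3 pathway lists and for 3 marker lists, each point a gene, bars at the medians and a dotted line at 1 TPM. The 10 genes have a median of 7.87 TPM, below the medians of the angiopoietin-TIE pathway (19.2 TPM) and of the endothelial (30.7 TPM) and fibroblast (87.3 TPM) markers and above that of PDGF processing and retention (4.47 TPM).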

How the data were processed

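The authors deposited a gene and a transcript table for each heart, not pooled. The build was mm10 and the annotation GENCODE M4, per the deposited read-me. Headers follow RSEM output; aligner and versions: not given in the sources used here. Per the labels, 10 ng of RNA, with spike-ins, went into each library. The expected counts that the authors deposited estimate the reads of each feature, and the deposited effective length is length minus 99 bases. TPM and FPKM values, per the file headers, are those counts scaled by effective length and depth. The deposited credibility bounds and posterior SD are in TPM and reads (a signal per feature), and the deposited percent is the share of each transcript in its gene.

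Of 43346 Ensembl genes, 42462 were matched by identifier, version removed, to GENCODE M21 of the same build, which gave symbols, coordinates, transcript names and sequences; 22 of 27 transcripts have the same length there. Genes unmatched held 0.117% and 0.116% of counts.

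Members and lists were chosen with earlier results of these data known. All 10 genes are named, of each pathway list the 4 most abundant detected genes and any that differ between the hearts, and of each marker list the 3 most abundant, except that single thymus and lymphocyte markers are not reported here; Angpt4, Ptprb, Plau, St14, Rgs5, Kcnj8, Gp6, Nkx2-1, Cldn5, Erg, Krt19, Cd68, Mrc1, Fcgr1, Myh6 and Myh7 were named after their values were seen. Detection was 1 TPM in both hearts. A pair was called where the log2 ratio of TPM + 1 had the same sign and the bounds were apart in both hearts. The absolute mean ratio also had to exceed the absolute difference between the hearts. Ratios between hearts used TMM factors from rounded expected counts (R 4.3.3, edgeR 4.0.16), a prior count of 2 and a mean count of 50 or more. The calculation was checked on counts simulated with the spread fitted here, which does not test the results in these hearts. DESeq2 1.42.0 size factors, library totals, spike-ins, posterior means, FPKM and other limits were alternatives. Tables used Python 3.11.15 and pandas 2.3.3.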

Additional observations from a re-analysis of the deposited data

How the results depend on the processing

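Across other scalings, another prior count, posterior mean counts and ratios of TPM + 1, 60 of 60 recomputed differences between the hearts kept their side of the limit, Angpt2 included. Ratios of pairs kept their direction and side in 71 of 72 recomputed values; with depth-scaled counts not divided by length, Tek exceeded Angpt1 by a log2 ratio of 0.15 and was called, since that setting leaves out length. The same setting gave -1.08 for Pdgfra over Pdgfa, 2.91 for Pdgfrb over Pdgfb and 2.94 for Pdgfa over Pdgfb. For Pdgfc over Pdgfd, protein-coding transcripts alone gave -2.14. At a limit of 5 TPM, 6 of the 10 genes and 7 genes of PDGF processing and retention were detected, fewer because the limit is higher. The share of all genes at that limit was not computed, so these counts have no background beside them. The count of genes with the same main transcript was 5 when only genes at 5 TPM or more were read, an alternative chosen after seeing the data. The share of the main transcript moved by more than the spread between the hearts in 12 of 39 values, with the same main transcript; by posterior mean TPM, the main transcript of Angpt2 held 90.6% rather than 100%. No paired analysis was possible because there is 1 group. Leaving out a heart leaves no ratio between the hearts. Depth limits Pdgfc (148 and 147 counts), where the bounds of the leading transcripts overlap.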
